A study of Mus musculus with 6 samples.

Results

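The Notch receptors Notch1, Notch2, Notch3 and Notch4, the canonical ligands Jag1, Jag2, Dll1, Dll3 and Dll4, and the non-canonical ligand Dlk1 were taken from the expression tables by gene symbol, which gave 10 genes of 55076 listed. Expression was measured by RNA-seq in 3 OEx and 3 Ctrl male mice, all 20 weeks old, with 1 library per mouse from the entire anterior prostate (AP). OEx mice carried Pbsn-Cre and 1 Rosa26 N1ICD allele, so that Cre switched on the Notch1 intracellular domain (N1ICD), and the labels call this genotype N1ICD-Oex. Ctrl mice are called wild type in the labels, but by the methods of the study they carried the same Rosa26 N1ICD allele without Cre. The Pbsn (probasin) promoter drives Cre in the prostatic epithelium, whereas the RNA came from all cells of the lobe. The comparison asks which receptors and ligands of the pathway differed in the AP when Notch1 signaling was forced on in the epithelium.

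Notch receptors are single-pass membrane proteins that are activated by Jagged or Delta-like ligands on a neighbouring cell. Ligand binding opens the receptor to cleavage by ADAM10 and then by gamma-secretase, and the released intracellular domain enters the nucleus, where it joins RBPJ and Mastermind proteins at target genes such as those of the Hes and Hey families. In the prostate the pathway is known for its part in the balance between basal and luminal epithelial cells, while NOTCH4 and DLL4 are best known from blood vessels and NOTCH3 from the mural cells around them.

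The site at which gamma-secretase releases the intracellular domain is shown because the transgene is named for that domain. It lies in coding sequence of exon 28 of 34 of Notch1, on the minus strand at chr2:26465442-26465492 of GRCm38, and capitals mark codon 1744 of 2531, where the released domain starts.
Notch1 cleavage site: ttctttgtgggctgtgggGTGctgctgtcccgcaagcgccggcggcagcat
From that codon on, 2364 of the 7593 coding bases remain (31.1%). The sources used here do not give the ends of the transgene, so a read that falls in this stretch can come from either the Rosa26 transgene or the Notch1 gene itself, and the 2 were not separated in any value of Notch1 given here.

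RefSeq promoter windows of GRCm38.p6, from 250 bases before to 50 bases after the start, were found for all 10 genes (11 windows) and were searched on both strands for short motifs of the pathway. The matches are shown because genes that moved in opposite directions shared 1 motif. CACGCG, a site that Hes and Hey repressors can bind, was present in 5 of the 11 windows and in 9.27% of all 32851 windows. Capitals mark the motif below, each sequence is read on the strand of its gene, and distances run from the RefSeq start to the first base of the motif.
Notch2, -42, plus strand, chr3:98013484-98013513: gaggcggaaggaCACGCGggccgcccagcc
Jag1, -171, minus strand, chr2:137116674-137116703: gagccaggcgggCACGCGtcattgtgttac
Jag2, 18, minus strand, chr12:112929460-112929489: cggcgatgcgggCACGCGgctggggacgcc
Dll1, -68, minus strand, chr17:15376983-15377012: cttaatgacagcCACGCGaacgacacacac
Dll4, -195, plus strand, chr2:119325577-119325606: ctgctcgccgggCACGCGcagagctggaag
Jag1 held a further match on the opposite strand at -249. The motif was found in windows of genes with higher (Notch2, Jag1) and lower (Jag2, Dll1, Dll4) levels in OEx mice, so the letters did not follow the direction. TGGGAA, the core of the RBPJ site, was in 0 of the 11 windows and in 25.6% of all windows, and CACGTG was in 0 and in 7.15%. A match is a description of the letters only, and a missing one says nothing about more distant sites.

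Levels are given in FPKM, fragments per kilobase of exon over a denominator for each mouse that was not its plain library total. Division by exon length allows levels of different genes to be compared. For Notch1 this is limited, since its annotated exon length of 14232 bases exceeds the 9488 bases of transcript Notch1-201. Reads of the transgene may also cover only a part of that length. The reads behind them were recovered, and came to 14762157 to 16998837 per OEx mouse and 17233748 to 18650949 per Ctrl mouse. The limma fit used log2(FPKM + 1) of the 12833 genes whose mean over all mice reached 1 FPKM, and the added 1 makes the fold change of a low gene look smaller than it is. A gene was called higher or lower with a Benjamini-Hochberg FDR under 0.05 and a fold change over 2, which 28.6% of the tested genes passed, 12.9% as higher and 15.7% as lower. The most abundant gene held 14.3% to 22.0% of all reads in Ctrl mice and at most 1.12% in OEx mice, and the split of calls moved with the scaling between mice. With library totals in place of the deposited scaling, the median over all genes of the log2 fold change moved from -0.078 to 0.56, and 3923 genes (30.6%) were called higher and 589 (4.59%) lower in place of 1653 and 2021. OEx replicate 3 and Ctrl replicate 3 stood apart from the other 2 mice of their groups (Pearson r across genes 0.950 and 0.951 in OEx mice and 0.965 in Ctrl mice, against 0.991 between replicates 1 and 2), and Ctrl replicate 3 carried seminal vesicle transcripts at a summed 16128 FPKM. In whole tissue, fewer cells of a type and less RNA per cell cannot be told apart. The libraries are separate mice by their titles, with no statement on litters.

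Of the 10 genes, 6 passed the filter on low values, and 4 of these (Notch1, Notch2, Notch3 and Jag1) were called higher and 1 (Jag2) was called lower. Notch4 was tested and not called. Dll1 and Dll4, with means of 0.976 and 0.936 FPKM over the 6 mice, fell just under the filter, and Dll3 and Dlk1 had almost no reads. These calls were the same with each mouse left out, without both replicates numbered 3 and under each scaling between mice. For 8 of the 10 genes the OEx and Ctrl mice did not overlap, which was also the case for 33.4% of all tested genes in the higher and 38.9% in the lower direction. The exact two-sided permutation p was 0.1 for each of these 8 genes, the smallest that 3 mice a group allow.

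Notch1, the receptor whose active form was switched on, was at 41.9, 47.6 and 78.9 FPKM in OEx mice and at 5.18, 5.55 and 3.34 FPKM in Ctrl mice. All OEx mice lay far above all Ctrl mice, and replicate 3 was the highest OEx mouse and the lowest Ctrl mouse. The means were 56.1 ± 19.9 and 4.69 ± 1.19 FPKM (SD, n = 3), a ratio of 11.97, with a log2 fold change of 3.30 (SE 0.268, limma FDR 1.01e-04). These values check the labels, with the transgene included. Notch1 (chr2:26457903-26516663, minus strand) overlaps 3 other annotated genes, 2 of them on the opposite strand. Of these, 0610009E02Rik was at 0.250 to 0.553 FPKM in OEx mice and 1.37 to 2.63 FPKM in Ctrl mice, opposite to Notch1, and whether strand was used in the counting is not given in the sources used here.

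Notch3, a receptor best known from vascular mural cells, had the largest ratio of the receptors. It was measured at 16.2, 17.8 and 28.3 FPKM in OEx mice and at 1.14, 1.02 and 1.28 FPKM in Ctrl mice. All OEx mice lay far above all Ctrl mice, and OEx replicate 3 was again the highest. The means of 20.8 ± 6.55 and 1.15 ± 0.129 FPKM (SD, n = 3) gave a ratio of 18.1 and a log2 fold change of 3.30 (SE 0.204, limma FDR 4.43e-05). The change of Notch3 ranked 55th and that of Notch1 56th from the top among all tested genes. Notch3 was thus at 2600 to 4104 reads in OEx mice where Ctrl mice had 106 to 156. The gene lies at chr17:32120820-32166852 on the minus strand, and an antisense gene on its other strand, Gm17276, was at most at 0.159 FPKM in any mouse.

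Markers of smooth muscle and mural cells are given beside Notch3. The summed FPKM of 11 markers of smooth muscle and mural cells was 360 to 436 in OEx mice and 1055 to 2266 in Ctrl mice, and 5 of the 10 tested markers were called lower and 0 higher. The 5 are Acta2, Cnn1, Des, Myh11 and Tagln, genes of the contractile apparatus of smooth muscle. Of all tested genes, 15.7% were called lower and 12.9% higher. Scaling by library totals left 2 markers called lower and 1 higher, where 4.59% and 30.6% of all tested genes were. The summed FPKM of the markers was still lower in every OEx mouse. On the log2 scale, Notch3 relative to this sum was higher by 5.88 in OEx mice, with no overlap between groups (exact permutation p = 0.1). Without both replicates numbered 3 this difference was 5.27, and against the mean log2(FPKM + 1) of the markers it was 4.08. Rgs5, a pericyte gene of the list that was picked out after its values were seen, was at 3.01 ± 1.08 FPKM in OEx mice and 0.997 ± 0.515 FPKM in Ctrl mice (SD, n = 3). Its log2 fold change of 0.995 (limma FDR 0.0142) was just under a call. The other tested genes of the list without a call did not share this rise. Mcam was at 0.25 (limma FDR 0.444), Pdgfrb at -0.30 (0.357), Cspg4 at -0.40 (0.0516) and Kcnj8 at -0.77 (0.0936). The cells that carried the Notch3 reads cannot be told apart in RNA of the whole lobe.

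Notch2, a receptor found in many epithelia, was at 6.98, 7.43 and 8.07 FPKM in OEx mice and at 1.91, 2.43 and 2.13 FPKM in Ctrl mice. The groups were well apart, and replicate 3 lay close to the other mice in both. The means were 7.49 ± 0.547 and 2.15 ± 0.262 FPKM (SD, n = 3), a ratio of 3.48 and a log2 fold change of 1.43 (SE 0.104, limma FDR 7.04e-05). Notch2 lies on the plus strand at chr3:98013527-98150361.

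Notch4, the receptor of endothelial cells, was at 0.796, 0.564 and 0.832 FPKM in OEx mice and at 1.33, 1.09 and 1.58 FPKM in Ctrl mice. All OEx mice lay below all Ctrl mice, by a small margin and at 104 to 194 reads per mouse. The means were 0.731 ± 0.145 and 1.33 ± 0.246 FPKM (SD, n = 3), 1.83-fold apart. The log2 fold change of -0.43 (SE 0.141, 95% interval -0.77 to -0.09, limma FDR 0.0319) did not reach the fold that a call needs. An FDR under 0.05 in the lower direction was reached by 36.5% of all tested genes. With library totals the log2 fold change of Notch4 was -0.05 with an FDR of 0.787 and the groups overlapped, and with a single mouse left out the FDR ran from 0.0308 (without OEx replicate 3) to 0.106 (without OEx replicate 2), being above 0.05 also without OEx replicate 1 (0.0666), Ctrl replicate 1 (0.0813) and Ctrl replicate 3 (0.0684).

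**Figure D1:**
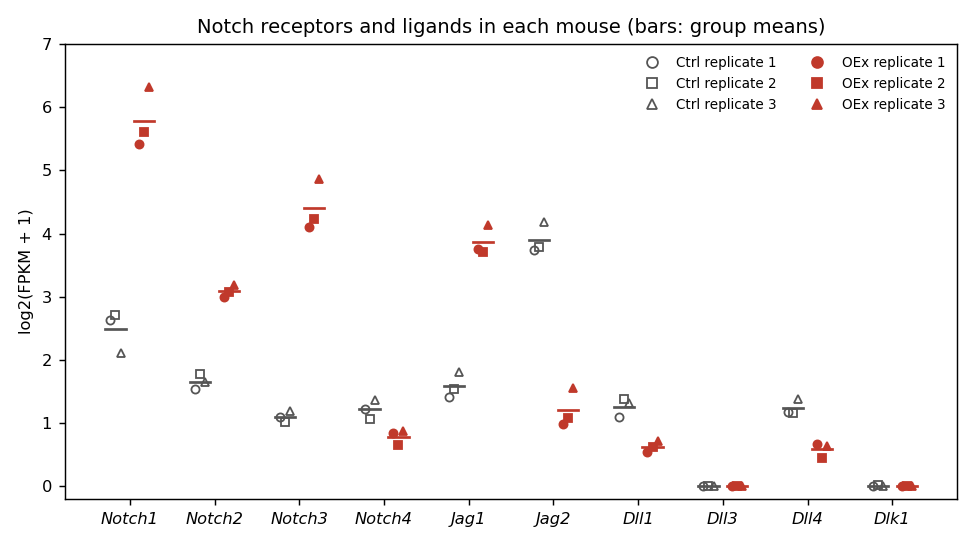
Level of each Notch receptor and ligand in each mouse as log2(FPKM + 1), with filled red symbols for the 3 OEx mice, open grey symbols for the 3 Ctrl mice, a symbol shape per replicate number and a bar at each group mean. Notch1, Notch2, Notch3 and Jag1 lie higher in all OEx mice, Notch4, Jag2, Dll1 and Dll4 lie lower, and Dll3 and Dlk1 lie at or near 0.

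Jag1 and Jag2, the Jagged ligands, moved in opposite directions. Jag1 was at 12.4, 12.01 and 16.6 FPKM in OEx mice and at 1.67, 1.92 and 2.50 FPKM in Ctrl mice. Jag2 was at 0.972, 1.12 and 1.94 FPKM in OEx mice and at 12.4, 12.8 and 17.1 FPKM in Ctrl mice. With the deposited scaling the level of Jag1 in OEx mice was thus close to that of Jag2 in Ctrl mice, and the low levels were alike too. This likeness depended on the scaling. With library totals Jag1 was at 16.3 to 20.5 in OEx mice and Jag2 at 9.09 to 14.1 in Ctrl mice. Among the canonical ligands, Jag2 had the highest mean in Ctrl mice and Jag1 in OEx mice. The OEx and Ctrl means of Jag1 were 13.7 ± 2.56 and 2.03 ± 0.422 FPKM (SD, n = 3), a ratio of 6.75, with a log2 fold change of 2.27 (SE 0.159, limma FDR 6.26e-05). Those of Jag2 were 1.34 ± 0.523 and 14.1 ± 2.63 FPKM (SD, n = 3), 10.5-fold apart, with a log2 fold change of -2.70 (SE 0.192, limma FDR 6.52e-05). Replicate 3 had the highest value of its group for both genes in both groups. Jag1 lies at chr2:137081456-137116644 and Jag2 at chr12:112907819-112929776, both on the minus strand.

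Jag2 is known from basal epithelial cells, and the markers of these cells were low in OEx mice as well. The summed FPKM of Krt5, Krt14, Krt15, Trp63 and Col17a1 was 6.93 to 16.4 in OEx mice and 216 to 253 in Ctrl mice, and 5 of the 5 were called lower. The median of their log2 fold changes was -3.85, against -0.078 over all tested genes. Each of the 5 still had reads in OEx mice. With the deposited scaling 15.7% of all tested genes were called lower and 12.9% higher, and with library totals 4.59% and 30.6%. The markers of luminal cells, the cells in which Pbsn is active, were called lower in 3 of 7 cases and higher in 0 with the deposited scaling, and lower in 1 case and higher in 2 with library totals. Their sum was 3252 to 6334 FPKM in OEx mice and 16909 to 20682 FPKM in Ctrl mice, and Pbsn itself gave most of it, at 2785 ± 1489 and 15621 ± 2413 FPKM (SD, n = 3). The part of the basal cells in the lower level of Jag2 was not tested.

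Dll1 and Dll4 are the Delta-like ligands with reads. Dll1 was at 0.463, 0.539 and 0.643 FPKM in OEx mice and at 1.14, 1.59 and 1.48 FPKM in Ctrl mice. Dll4, the ligand of sprouting and arterial endothelium, was at 0.599, 0.363 and 0.561 FPKM in OEx mice and at 1.27, 1.22 and 1.61 FPKM in Ctrl mice. Both were lower in every OEx mouse than in every Ctrl mouse, 2.56-fold by the means for Dll1 and 2.69-fold for Dll4, at 32 to 95 reads per mouse. With a filter of 0.1 FPKM the log2 fold changes were -0.63 (SE 0.119, limma FDR 0.00454) and -0.65 (SE 0.121, limma FDR 0.00429), under the fold that a call needs, where 25.4% of the genes tested with that filter had an FDR under 0.05 in the lower direction and 10.3% were called lower. On recovered reads with limma-voom, which adds no pseudocount of 1 FPKM, they were -1.36 (SE 0.248, FDR 0.00221) and -1.47 (SE 0.280, FDR 0.00273), and both were called lower, as were 17.4% of genes. With library totals both were still lower in every OEx mouse, with OEx to Ctrl ratios of 0.667 and 0.633.

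Endothelial markers gave the background for Notch4 and Dll4. The summed FPKM of 12 endothelial genes was 32.1 to 33.1 in OEx mice and 48.9 to 68.2 in Ctrl mice, and 2 of the 11 tested were called lower and 0 higher (6 of 12 lower and 0 higher with limma-voom). Under each other scaling 2 were called lower and 1 higher. Among all tested genes 15.7% were called lower and 12.9% higher with the deposited scaling, and 4.59% and 30.6% with library totals. Of the 11, 8 had a limma FDR under 0.05 as lower and 1 as higher, against 36.5% and 30.7% of all tested genes. The latter was Esam, picked out after its values were seen, at 9.66 ± 0.308 FPKM in OEx mice and 5.44 ± 1.73 FPKM in Ctrl mice (SD, n = 3). The sum thus rests in part on a gene that went the other way. With library totals the sums of the 12 genes overlapped, at 40.1 to 44.9 in OEx mice and 35.8 to 56.0 in Ctrl mice. Relative to the sum, a measure that scaling between mice does not touch, Notch4 differed by -0.12 on the log2 scale with overlapping groups (exact permutation p = 0.8). It differed by 0.07 without OEx replicate 2 and by 0.21 against the mean log2(FPKM + 1) of the markers, so no direction held. Dll4 relative to the sum was lower by 0.70 on the log2 scale with no overlap (exact permutation p = 0.1). Against the mean log2(FPKM + 1) of the markers the difference was -0.01. That measure also adds 1 FPKM to Dll4 itself, which shrinks the difference of so low a gene, so these measures are not alike.

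Dll3, a ligand that acts within the cell that makes it, was at 0 reads in all 6 mice. Dlk1, a Delta-like protein of fetal and adrenal tissues that lacks the domain with which canonical ligands bind Notch, had 1 read in Ctrl replicate 2 (0.0137 FPKM) and 0 reads in the other 5 mice. At these depths, a count of 0 allows up to 3 reads, which is 0.131 to 0.240 CPM on the denominator behind the FPKM values and covers counting error only. Neither gene gave a difference that could be detected at this depth.

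Because a share within a mouse does not move with any scaling factor between mice, the makeup of each family was compared as well. Of the summed FPKM of the 4 receptors, Notch1 took 65.5 ± 2.26% in OEx mice and 49.8 ± 8.40% in Ctrl mice (SD, n = 3). The share of Notch3 was 24.4 ± 0.176% in OEx mice and 12.5 ± 2.65% in Ctrl mice (SD, n = 3). Notch2 took 9.22 ± 1.98% and 23.2 ± 2.92%, and Notch4 took 0.898 ± 0.270% and 14.6 ± 4.14% (SD, n = 3). The share of Notch2 was thus lower in OEx mice although its level was higher, since Notch1 and Notch3 were higher by more. The groups did not overlap for any of the 4 receptors (exact permutation p = 0.1 each). The summed level of the receptors was 85.1 ± 27.1 FPKM in OEx mice and 9.33 ± 0.904 FPKM in Ctrl mice (SD, n = 3).

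Shares were also taken without Notch1, whose reads may be of the transgene. Among Notch2, Notch3 and Notch4 alone, Notch3 took 70.9 ± 4.54% in OEx mice and 24.7 ± 1.99% in Ctrl mice, and Notch2, the leading one of these in Ctrl mice, took 26.5 ± 4.18% and 46.6 ± 6.02% (SD, n = 3). Notch4 took 2.58 ± 0.640% and 28.7 ± 4.09% (SD, n = 3). The sum of these 3 receptors was 29.0 ± 7.15 FPKM in OEx mice and 4.64 ± 0.318 FPKM in Ctrl mice (SD, n = 3), with no overlap between groups (exact permutation p = 0.1).

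Among the canonical ligands, Jag1 took 85.9, 85.6 and 84.1% of the summed FPKM in OEx mice and 10.1, 10.96 and 10.98% in Ctrl mice. Jag2 took 6.71, 7.96 and 9.81% in OEx mice and 75.3, 73.0 and 75.4% in Ctrl mice. The shares of both Jagged ligands lay far apart between the groups and close together within each, and replicate 3 lay just outside the range of replicates 1 and 2 for both ligands in both groups. Dll1 took 3.43 ± 0.355% and 7.498 ± 1.39%, and Dll4 took 3.19 ± 0.832% and 7.24 ± 0.381% (SD, n = 3). None of the 4 ligands with reads overlapped between groups in its share (exact permutation p = 0.1 each). The summed level of the ligands differed little, at 16.1 ± 3.21 FPKM in OEx mice and 18.9 ± 3.34 FPKM in Ctrl mice (SD, n = 3), with overlapping groups (exact permutation p = 0.4). With library totals the sum was instead higher in every OEx mouse, at 19.0 to 24.4 against 12.1 to 18.7.

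**Figure D2:**
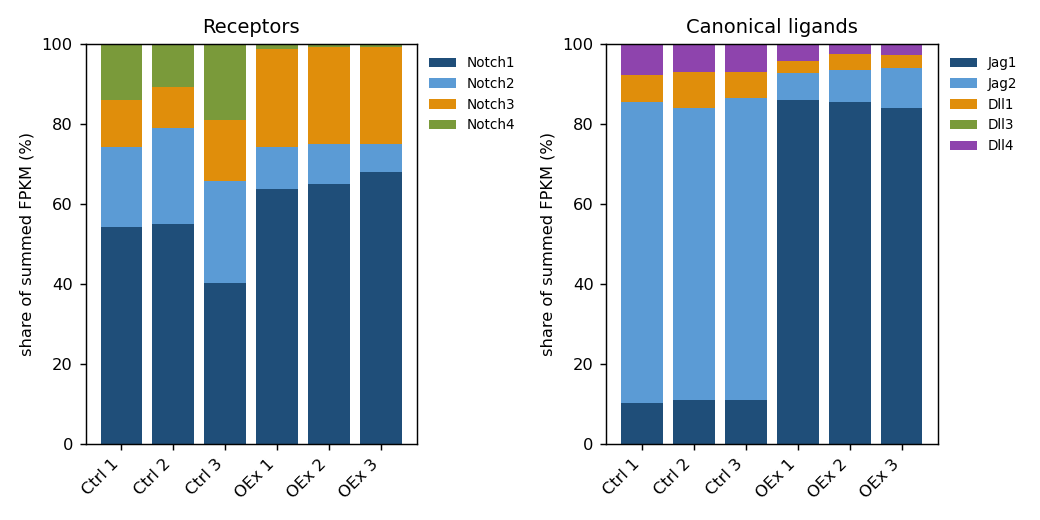
Share of each gene in the summed FPKM of the 4 receptors (left) and of the 5 canonical ligands (right), in percent, with 1 stacked bar per mouse. Notch3 widens and Notch4 shrinks in the OEx bars, and Jag1 replaces Jag2 as the main ligand in all 3 OEx mice, with 84.1 to 85.9% of the sum.

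The order of the levels differed between the groups. In Ctrl mice Jag2 was highest, followed by Notch1 and then by Notch2 and Jag1, whose ranges overlapped. Dll1, Dll4, Notch4 and Notch3 came next, each overlapping with its neighbour, and Notch3 had the lowest mean of all genes with more than 1 read. In OEx mice Notch1 was highest, followed by Notch3 and Jag1, whose ranges overlapped, then by Notch2 and Jag2. Notch4, Dll1 and Dll4 came last of the genes with reads, and neighbours in that order overlapped. Notch3 thus stood 8th in Ctrl mice and 2nd in OEx mice.

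The 5 tested genes whose profile over the 6 mice was closest to that of Notch1 were Bex1, Vipr1, Treh, Timp4 and 1810064F22Rik. Their log2(FPKM + 1) values, centred on the mean of the mice, differed from those of Notch1 by a root mean square of 0.149, 0.176, 0.179, 0.183 and 0.192. Each was highest in OEx replicate 3, as Notch1 was. The likeness rests on 6 mice and mainly on the difference between the groups.

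**Figure D3:**
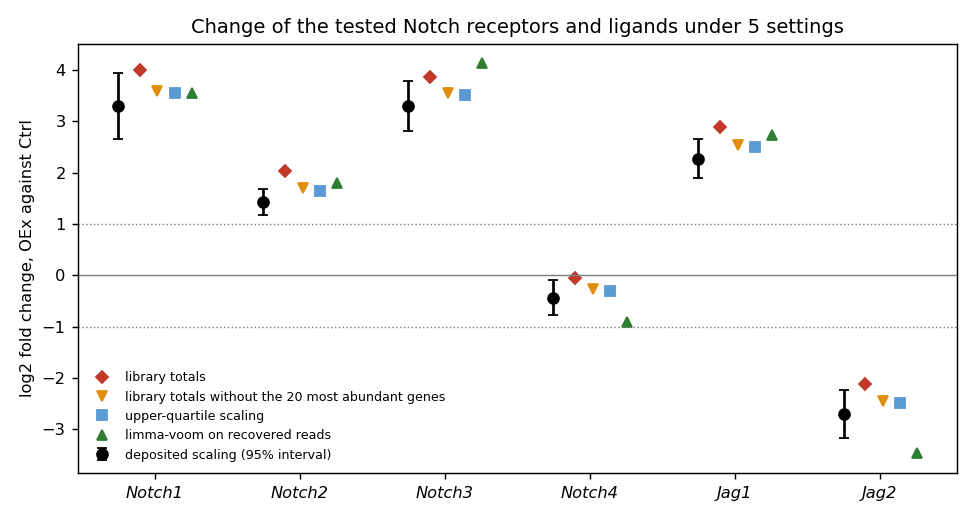
Log2 fold change of OEx against Ctrl mice for the 6 tested genes, with the deposited scaling as black points with 95% intervals from limma, and other scalings and limma-voom on recovered reads as coloured symbols. Dotted lines mark a fold of 2, and Notch4 is the only gene whose points all lie between them, from -0.90 to -0.05.

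The other genes of the pathway were read from the same limma comparison, in lists set by their role. Of 73 genes beside the 10, 63 were tested, 7 were called higher and 5 lower, against 12.9% and 15.7% of all tested genes, and their median log2 fold change was 0.35 against -0.078 over all tested genes. The calls in the higher direction depended on the scaling: with library totals 30 were called higher and 2 lower, where 30.6% and 4.59% of all tested genes were.

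Of 7 target genes of Notch, 4 were tested and 4 were called higher, 1 of them (Hey1) not without OEx replicate 3. Heyl, a Hey family repressor, was at 26.3, 26.7 and 58.5 FPKM in OEx mice and at 0.281, 0.514 and 0.914 FPKM in Ctrl mice, with a log2 fold change of 4.52 (SE 0.327, limma FDR 6.92e-05). Nrarp, a feedback inhibitor of the Notch complex, was at 6.46, 7.45 and 13.6 FPKM in OEx mice and at 0.310, 0.419 and 0.765 FPKM in Ctrl mice, with a log2 fold change of 2.71 (SE 0.268, limma FDR 1.99e-04). Both had their highest value of each group in replicate 3. Hes1 was at 230 ± 22.4 FPKM in OEx mice and 48.9 ± 1.15 FPKM in Ctrl mice (SD, n = 3), with a log2 fold change of 2.21 (SE 0.097, limma FDR 2.35e-05). Hey1 was at 11.6 ± 3.79 and 4.38 ± 0.653 FPKM (SD, n = 3), with a log2 fold change of 1.199 that was 0.97 without OEx replicate 3 and 0.89 without both replicates numbered 3, where it was not called. Hes1 gave most of the summed level of the targets.

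The other 3 target genes were too low to be tested. Hey2 was at 0.629 ± 0.103 FPKM in OEx mice and 0.124 ± 0.010 FPKM in Ctrl mice (SD, n = 3), from 45 to 78 reads against 7 to 8. Hes5 had 2, 3 and 2 reads in OEx mice and 0 in each Ctrl mouse, at or under the floor of 3 reads. Dtx1, a ubiquitin ligase gene, was at 0.609, 0.772 and 0.147 FPKM in OEx mice and at 0.592, 0.586 and 1.10 FPKM in Ctrl mice, with overlapping groups.

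Of the ligands outside the canonical family, 8 were looked up beside Dlk1 and 4 were tested. Dlk2, the paralog of Dlk1, was called lower and was at 0.261, 0.476 and 1.18 FPKM in OEx mice and at 9.12, 9.72 and 15.8 FPKM in Ctrl mice, with a log2 fold change of -2.94 (SE 0.271, limma FDR 1.52e-04). As for Jag2, replicate 3 was the highest mouse of both groups. Dner, a transmembrane ligand of neurons, fell under the filter on low values and had 15 to 23 reads in OEx mice and 59 to 93 in Ctrl mice.

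Of 18 tested genes whose products add sugars to the receptors or cut them, 3 were called lower and 0 higher with the deposited scaling, where 15.7% and 12.9% of all tested genes were. With library totals 1 was called lower and 5 higher, where 4.59% and 30.6% of all tested genes were. Of 9 glycosylation genes, Gxylt2, which extends O-glucose on Notch with xylose, was called lower at 0.663 ± 0.244 FPKM in OEx mice and 12.6 ± 2.54 FPKM in Ctrl mice (SD, n = 3), with a log2 fold change of -3.02 (limma FDR 3.88e-05). Its paralog Gxylt1 was at 6.002 ± 0.170 and 2.56 ± 0.170 FPKM (SD, n = 3) with a log2 fold change of 0.98, just under a call, which it passed under each other scaling, pseudocount and limma-voom, from 1.09 with a pseudocount of 0.5 FPKM to 1.59 with library totals, and at 1.002 without Ctrl replicate 3. Lfng, the fringe enzyme that shifts the choice of ligand, was at 2.60 ± 1.202 and 4.55 ± 0.549 FPKM (SD, n = 3) and was not called. Gxylt1, as well as Lfng, was picked out after its values were seen.

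Of 9 tested cleavage genes, Psenen, a subunit of gamma-secretase, was called lower at 34.5 ± 0.412 FPKM in OEx mice and 102 ± 3.22 FPKM in Ctrl mice (SD, n = 3), which is a log2 fold change of -1.53 (limma FDR 2.64e-05). Furin, the convertase that cuts the receptor on its way to the membrane, was called lower at 7.91 ± 0.763 and 22.7 ± 5.88 FPKM (SD, n = 3), a log2 fold change of -1.38 (limma FDR 9.64e-04). With library totals both were under a fold of 2, at -0.76 for Psenen and -0.66 for Furin. Adam10, whose protein cuts the ligand-bound receptor and which was picked out after its values were seen, was at 30.3 ± 2.38 and 16.997 ± 0.890 FPKM (SD, n = 3), a log2 fold change of 0.80 that was not called with the deposited scaling but was with library totals (1.54), without the 20 most abundant genes in them (1.12) and with upper-quartile scaling (1.06).

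Neurl1b, a ubiquitin ligase gene for ligand endocytosis, was called higher as 1 of 5 tested genes of its list. It was at 4.402, 4.99 and 7.34 FPKM in OEx mice and at 0.480, 0.573 and 0.904 FPKM in Ctrl mice, with a log2 fold change of 1.98 (SE 0.193, limma FDR 1.91e-04). Mib1, the other main ligase of the ligands, picked out after its values were seen, was at 10.6 ± 0.607 and 4.83 ± 0.248 FPKM (SD, n = 3). Its log2 fold change of 0.99 missed the fold of 2 by little. It passed with library totals (1.67), without the 20 most abundant genes in them (1.29), with upper-quartile scaling (1.24), limma-voom (1.13) and pseudocounts of 0.1 (1.12) and 0.5 FPKM (1.06), without Ctrl replicate 3 (1.02) and without OEx replicate 2 (1.03). Dtx4, a Deltex ubiquitin ligase gene and 1 of 10 genes of receptor trafficking and degradation, was called higher. It was at 26.8, 28.2 and 37.3 FPKM in OEx mice and at 2.04, 1.92 and 2.93 FPKM in Ctrl mice, and its log2 fold change was 3.27 (SE 0.170, limma FDR 3.00e-05).

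The nuclear partners of N1ICD had 0 calls among 8 tested genes at this fold, although 5 of them had an unadjusted p under 0.05 and also a limma FDR under 0.05 in the higher direction, which 30.7% of all tested genes had. Rbpj, which encodes the DNA-binding partner, was at 3.33 ± 0.275 FPKM in OEx mice and 2.48 ± 0.222 FPKM in Ctrl mice (SD, n = 3), and its log2 fold change was 0.31 (SE 0.103, limma FDR 0.0320). With 1 mouse left out the limma FDR of Rbpj ran from 0.0256 (without Ctrl replicate 3) to 0.125 (without OEx replicate 1). It was also above 0.05 without OEx replicate 2 (0.0812), Ctrl replicate 1 (0.0743) and Ctrl replicate 2 (0.102). With library totals it was 7.01e-04. Ep300, which encodes a coactivator, was at 7.81 ± 1.05 and 3.77 ± 0.672 FPKM (SD, n = 3), a log2 fold change of 0.89. Both were picked out after their values were seen. With library totals 3 of the 8 were called higher, where 30.6% of all tested genes were. With limma-voom on recovered reads 1 of 9 was, Ep300 at 1.06, where 3545 of 15813 genes were.

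Of 14 corepressor genes, Cir1, which encodes a protein that links RBPJ to histone deacetylases, was called higher at 3.99 ± 0.420 and 1.11 ± 0.342 FPKM (SD, n = 3), a log2 fold change of 1.25 (limma FDR 4.00e-04). Ctbp1 was called lower at 37.0 ± 2.43 and 77.0 ± 5.26 FPKM (SD, n = 3). Its log2 fold change of -1.04 was -0.997 without Ctrl replicate 1 and -0.997 without OEx replicate 1, just under a call, and -0.27 with library totals. The counts of this list moved with the scaling, from 1 higher and 1 lower to 10 higher and 0 lower with library totals, and to 5 higher and 0 lower both with upper-quartile scaling and without the 20 most abundant genes in the totals. Over all 12833 tested genes, 30.6% were called higher with library totals. With upper-quartile scaling 2341 were, and without the 20 most abundant genes 2523 were, in place of 1653. Kdm5a, a demethylase gene picked out after its values were seen, had a log2 fold change of 0.97, which passed the fold of 2 under the same scalings, pseudocounts and limma-voom, from 1.09 with a pseudocount of 0.5 FPKM to 1.57 with library totals, and was 1.03 without OEx replicate 1 and 1.03 without OEx replicate 2.

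**Figure D4:**
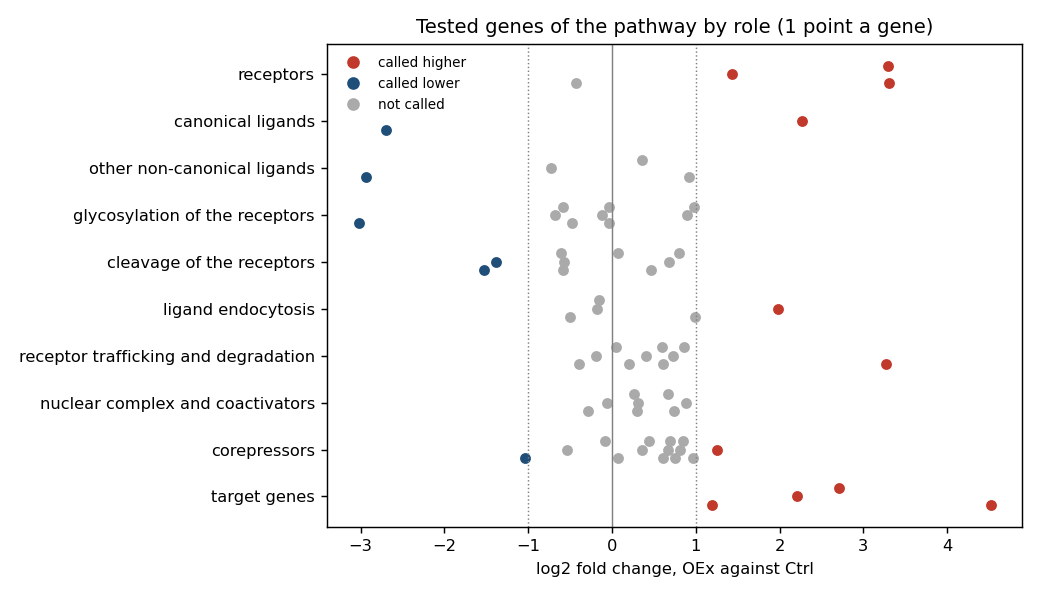
Log2 fold change of OEx against Ctrl mice for every tested gene of the pathway, 1 point a gene, with a line of points for each role and dotted lines at a fold of 2. Red points were called higher and blue points lower, and all 4 tested target genes are red, from 1.199 to 4.52.

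The remaining marker lists were low or varied between mice of a group. Fibroblast markers were at a summed 24.6 to 184 FPKM in OEx mice and 62.5 to 120 in Ctrl mice, with 0 of 6 called by limma or limma-voom and 0 at an unadjusted p under 0.05. Leukocyte markers were at 5.62 to 22.5 and 5.03 to 11.04, with 0 of 3 tested genes called by limma, 1 at an unadjusted p under 0.05 and 1 of 6 called higher by limma-voom. OEx replicate 3 was the lowest OEx mouse in both. Neuroendocrine markers were at 0.157 to 0.221 in OEx mice and 0.531 to 0.821 in Ctrl mice, none of them tested, and Schwann cell markers at 2.05 to 2.61 and 5.67 to 7.58, with 1 of 1 called lower. Of 8 seminal vesicle genes 4 were tested and 0 called by limma, 0 at an unadjusted p under 0.05 and 0 of 2 by limma-voom, with the high level in Ctrl replicate 3 alone. No list held a gene at 0 reads in all mice. The part of these cell types in the levels of the receptors and ligands was not tested.

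**Figure D5:**
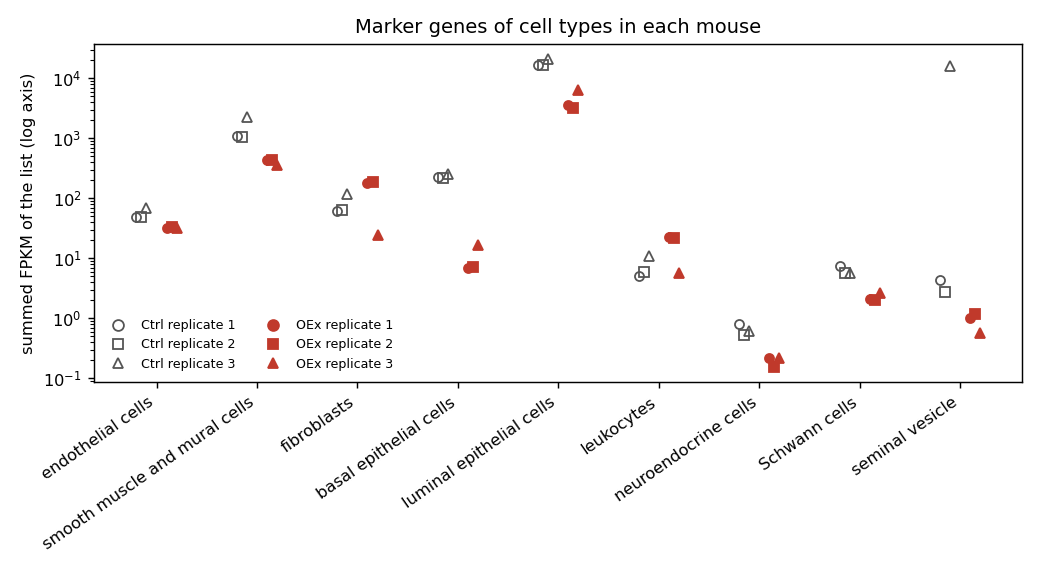
Summed FPKM of the marker genes of each cell type in each mouse on a log axis, with filled red symbols for OEx mice, open grey symbols for Ctrl mice and a symbol shape per replicate number. Basal markers are at 6.93 to 16.4 FPKM in OEx mice and 216 to 253 FPKM in Ctrl mice, and seminal vesicle genes reach 16128 FPKM in Ctrl replicate 3.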

How the data were processed

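Total RNA of AP cleaned of secretions was extracted with Trizol, and TruSeq libraries of 6 mice were sequenced on an Illumina HiSeq. Each mouse has a table of FPKM values that the authors deposited, listed by symbol. The submitters' processing notes name CASAVA, HISAT2 2.0.5, StringTie 1.3.3b and featureCounts 1.5.0-p3, with no roles, and the genome build is not given in the sources used here. Exon lengths and coordinates came from the mouse GENCODE annotation of GRCm38 (53636 of 55076 symbols matched), and promoter windows from RefSeq GRCm38.p6.

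Reads were recovered from the steps between FPKM values. Of values worth fewer than 1000 reads, 96.9% to 97.5% per mouse came out whole to within 0.05 reads. Notch3, whose annotated exon length of 8089 bases gave no whole reads, was recovered at 8044 bases, the 1 length between 6000 and 12000 that gave whole reads in all 6 mice. The ratio of the FPKM denominator to the recovered reads ran from 1.22 to 1.35 for OEx and from 0.726 to 0.815 for Ctrl, so the values carry a scaling between mice.

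A two-sided limma 3.58.1 model (R 4.3.3) of log2(FPKM + 1) had no term but the group, used an intensity trend and took in genes averaging 1 FPKM or more. Calls followed the criteria of the study (FDR under 0.05, fold over 2). Shares and ratios to markers were compared with exact two-sided permutation tests over all 20 assignments. Alternatives were other scalings, pseudocounts of 0.1 and 0.5, other filters, limma-voom on genes with at least 10 reads in at least 3 mice, each mouse left out, and the replicate number as a block. The fit and the recovery were tested on simulated data. Tables and plots used matplotlib 3.10.9, scipy 1.17.1, pandas 2.3.3 and numpy 2.4.6 in Python 3.11.15.

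Named genes are the 10 genes, called pathway genes up to 4 per list, the target genes, and the 5 tested genes closest in profile to Notch1. Other genes are said to be picked after their values were seen. The genes and lists were chosen with earlier results of these data known. With 3 mice per group, p-values set the difference between groups against the spread between these mice only. In limma this spread is moderated across all tested genes.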

Additional observations from a re-analysis of the deposited data

How the results depend on the processing

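The calls of the 6 tested receptors and ligands held under all 16 alternatives, with Notch4 uncalled in each, and the number of receptors and ligands called lower was 3 with limma-voom, where Dll1 and Dll4 were tested. Over all genes, those called higher were 3923 with library totals, 2523 with library totals without the 20 most abundant genes and 3545 with limma-voom on 15813 genes, and those called lower were 589 with library totals, 1204 without the 20 most abundant genes and 1326 with upper-quartile scaling (2341 higher). Other pathway genes called higher were 30 with library totals, 19 without the 20 most abundant genes, 17 with upper-quartile scaling, 15 with limma-voom, 14 with a pseudocount of 0.1 FPKM and 12 with 0.5 FPKM, and those called lower were 2 with library totals. Leaving out 1 mouse gave 1614 to 1726 genes called higher and 1987 to 2043 lower. Leaving out both replicates numbered 3, an alternative chosen after seeing the data, gave 1826 and 2117.

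Without Notch1 in the sum, the differences in share (OEx minus Ctrl, percentage points) were -20.0 for Notch2, 46.2 for Notch3 and -26.1 for Notch4. Against the mean log2(FPKM + 1) of the markers, the difference of Notch4 turned to 0.21, that of Dll4 was -0.0105 and that of Notch3 was 4.08. Without both replicates numbered 3 it was 5.27 for Notch3. The measure with log2(FPKM + 1) adds 1 FPKM to the receptor or ligand too, which makes the difference of a low gene look smaller. Any other cause of these shifts was not tested.

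The replicate numbers run from 1 to 3 in both groups. Deviations of same-numbered mice from their group means correlated at -0.307 to -0.189 across genes and those of other pairs at -0.229 to 0.271. With 3 mice in each group these correlations are tied together. They cannot show whether same-numbered mice were handled together, which is not stated. With the replicate block 1611 genes were called higher and 1986 lower, with 4 of the receptors and ligands higher and 1 lower. Of the fold changes of single genes under these alternatives, 359 stayed on their side of the call, 32 passed it and 9 no longer did. Depth limits Dll3, Dlk1 and Hes5.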
